A study of Mus musculus with 2 samples.

Results

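The surface ectoderm is the outer epithelium of the embryo, which later gives rise to the epidermis and its appendages, the lens, the olfactory and otic placodes and the lining of the mouth. It was examined in a droplet-based single-cell RNA-seq data set of whole mouse embryos at embryonic day 9.5, with 1 wild-type (Usb1+/+) library and 1 Usb1-null (germline Usb1-/-) library. USB1 is the exonuclease that trims the oligo(U) tail of U6 snRNA, and the libraries were made to look for defects of Usb1-null embryos at single-cell resolution. Neither the labels nor the methods state how many embryos made up a library, or their strain. The labels name the molecule as nuclear RNA, while the methods describe a suspension of whole cells. A cell was taken as surface ectoderm when it had 200 to 6000 detected genes, at least 1 unique molecular identifier (UMI) of Trp63 and at least 1 UMI in at least 2 of 9 further genes (Grhl2, Wnt6, Epcam, Cdh1, Esrp1, Fermt1, Mir205hg, Cldn6 and Galnt3). Since the cells were chosen by their own measured UMIs, the levels of these 10 genes describe the choice and are not findings. The rule found 589 cells among 28179, with 288 of 15161 wild-type cells and 301 of 13018 Usb1-null cells.

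p63, the product of Trp63, is the master transcription factor of stratified epithelia and is switched on in the surface ectoderm before stratification. GRHL2 and the TFAP2 factors activate epithelial junction genes, ESRP1 directs epithelial splicing, and Mir205hg is the host transcript of the epithelial microRNA miR-205. At this stage the surface ectoderm is a simple epithelium that carries the keratins of simple epithelia, exchanges WNT, FGF and BMP signals with the mesenchyme beneath it, and is patterned along the body axis like the tissues it covers.

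The sequences below, from RefSeq on GRCm38.p6, are shown because Mir205hg is a gene of the rule whose mature products were not counted by the 3′ assay, and because a Grainyhead-like element lies in the 3 promoters shown, out of those looked up. The mature miR-205 arms lie on the minus strand of chromosome 1 (chr1:193507503-193507524 for the 5p arm and chr1:193507467-193507488 for the 3p arm). Capitals mark the seed, bases 2 to 8.
mmu-miR-205-5p: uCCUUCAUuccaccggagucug
mmu-miR-205-3p: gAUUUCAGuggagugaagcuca
Promoter entries, 250 bases before to 50 after a start, were found for 18 of the 25 genes of the rule and of the 15 genes most enriched outside it. The Grainyhead-like element AACNGGTT, searched on both strands, was present in 3 of these 18 genes (16.7%) and in 2.35% of 27025 genes with a promoter entry. Capitals mark it in the promoters of Mir205hg (chr1:193510161-193510460, minus strand), Fmn1 (chr2:113684840-113685139, plus strand) and Frem2 (chr3:53657306-53657605, minus strand).
Mir205hg: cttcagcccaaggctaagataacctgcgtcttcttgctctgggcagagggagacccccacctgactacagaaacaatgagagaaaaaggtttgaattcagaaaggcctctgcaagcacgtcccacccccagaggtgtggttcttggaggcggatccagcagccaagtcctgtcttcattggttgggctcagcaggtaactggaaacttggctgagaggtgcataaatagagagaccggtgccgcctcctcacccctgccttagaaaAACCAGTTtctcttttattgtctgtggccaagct
Fmn1: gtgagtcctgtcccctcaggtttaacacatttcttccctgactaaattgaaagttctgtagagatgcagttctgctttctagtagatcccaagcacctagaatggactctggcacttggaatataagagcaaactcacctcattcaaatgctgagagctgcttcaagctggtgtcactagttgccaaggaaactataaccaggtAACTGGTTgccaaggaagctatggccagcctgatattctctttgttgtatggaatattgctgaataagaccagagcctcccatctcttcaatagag
Frem2: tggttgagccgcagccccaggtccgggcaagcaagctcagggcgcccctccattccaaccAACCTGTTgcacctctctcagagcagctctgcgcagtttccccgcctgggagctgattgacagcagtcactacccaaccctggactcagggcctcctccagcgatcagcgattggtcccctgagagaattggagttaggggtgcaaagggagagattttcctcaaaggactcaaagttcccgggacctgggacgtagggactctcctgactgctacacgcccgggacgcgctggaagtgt
The TFAP2 element GCCNNNGGC, searched on both strands, was present in 8 of the 18 genes (44.4%), among them Wnt6, Fermt1, Bcam and Npnt, and in 18.5% of all genes with an entry. A pair of p63 half-sites, CATG and CATG with 6 bases between them, was in none of the 18 windows and in 0.833% of all. These matches describe letters in a window, not binding.

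The libraries differed in depth and in sex-linked transcripts, which touches each comparison below. The wild-type library held 21751961 UMIs with a median of 1243 per cell, and the Usb1-null library held 33775852 UMIs with a median of 2299.5. Surface ectoderm cells carried more UMIs than the average cell, with medians of 1683 and 2699. Xist was detected in 95.1% of the wild-type surface ectoderm cells and in 0 of 301 Usb1-null cells, and at least 1 of the Y-linked genes Uty, Ddx3y, Eif2s3y and Kdm5d was detected in 81.4% of the Usb1-null cells and in 0 of 288 wild-type cells, so that sex and genotype cannot be told apart. Usb1 itself gave 1 UMI in the surface ectoderm of each library, and since the deletion removes the first exons while the assay reads 3′ ends, this does not check the label. With 1 library per group there is no replicate error and no test between genotypes. All intervals are 95% intervals that cover counting error only.

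Markers that did not enter the rule were read beside the other cells. The cells were chosen by genes of the same libraries, so this describes the label and does not test it. Tfap2a, a transcription factor of ectoderm and neural crest, stood at 173 CPM (UMIs of a gene scaled so that 10000 CPM are 1% of the UMIs of a cell set) in the wild-type and 175 CPM in the Usb1-null surface ectoderm, against 28.8 and 30.03 CPM in the other cells of the same libraries. Tfap2c was 7.92-fold and 7.44-fold above the other cells, and the desmosomal p63 target Perp was 14.5-fold and 12.5-fold above them. These genes were picked from their lists. Of 9 counted ectoderm transcription factors 4, and of 6 counted p63 targets 3, were at least 2-fold above the other cells. Over all 6506 genes with at least 50 UMIs, 3.09% were so in both libraries. Genes of other cell types were present, most of them at lower levels than in the other cells. The summed level of 15 mesenchyme genes was 277 and 259 CPM, against 789 and 691 CPM in the other cells, and that of 12 neural genes was 291 and 263 CPM, against 742 and 648 CPM. The 13 gut endoderm genes summed to 27.7 and 72.4 CPM, against 45.0 and 82.2 CPM, with Hnf4a and Pdx1 at 0 UMIs in both libraries, and the 11 erythroid genes summed to 347 and 106 CPM, against 870 and 219 CPM in the other cells. The 7 endothelial genes were at 95.3 and 134 CPM, against 410 and 384 CPM, and the 6 neural crest genes at 101 and 97.8 CPM, against 135 and 143 CPM. The 7 cardiac genes were at 345 and 181 CPM, against 510 and 286 CPM. A doublet caller marked 38 wild-type (13.2%) and 23 Usb1-null (7.64%) surface ectoderm cells, against 6.76% and 4.30% of all cells. The part of free RNA in single genes was not tested. No barcode was called surface ectoderm in both libraries.

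In their level of Tfap2a, cells just inside and just outside the threshold were closer to each other in the wild-type than in the Usb1-null library. The 98 wild-type cells with Trp63 and exactly 2 further markers had 170 CPM of Tfap2a, and the 73 cells with Trp63 and 1 further marker had 158 CPM. In the Usb1-null library the corresponding values were 178 CPM in 64 cells and 67.4 CPM in 34 cells. Cdh3 went the same way, at 255 and 232 CPM in the wild-type and 203 and 89.8 CPM in the Usb1-null cells. Pdgfa did not, at 364 and 353 CPM in the wild-type and 228 and 236 CPM in the Usb1-null cells. Cells with Trp63 and no further marker, 57 in each library, had 75.8 and 25.8 CPM of Tfap2a. Most of the chosen cells carried a single Trp63 UMI, 58.0% in the wild-type and 56.8% in the Usb1-null library.

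The share of surface ectoderm cells depended on the depth at which it was read. With all UMIs, the wild-type share was 1.90% (exact Clopper-Pearson interval 1.69 to 2.13), the Usb1-null share was 2.31% (2.06 to 2.59) and their ratio was 1.22 (1.03 to 1.44). When every cell was thinned to 1000 UMIs and the rule applied again, 1.17% (0.969 to 1.40) of 10188 cells met it in the wild-type library, 0.814% (0.664 to 0.988) of 12406 cells met it in the Usb1-null library, and the ratio was 0.697 (0.529 to 0.916). The thinning left out 32.8% of wild-type cells and 4.70% of Usb1-null cells for having fewer UMIs. When only the Usb1-null UMIs were thinned, to the median depth of the wild-type library and with no cell left out, the Usb1-null share was 1.198% (1.02 to 1.40). Among cells with at least 1000 UMIs, read with all UMIs, the shares were 2.45% and 2.41%. The direction of the difference therefore changed with depth, and no order of the shares is read from these libraries.

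**Figure D1:**
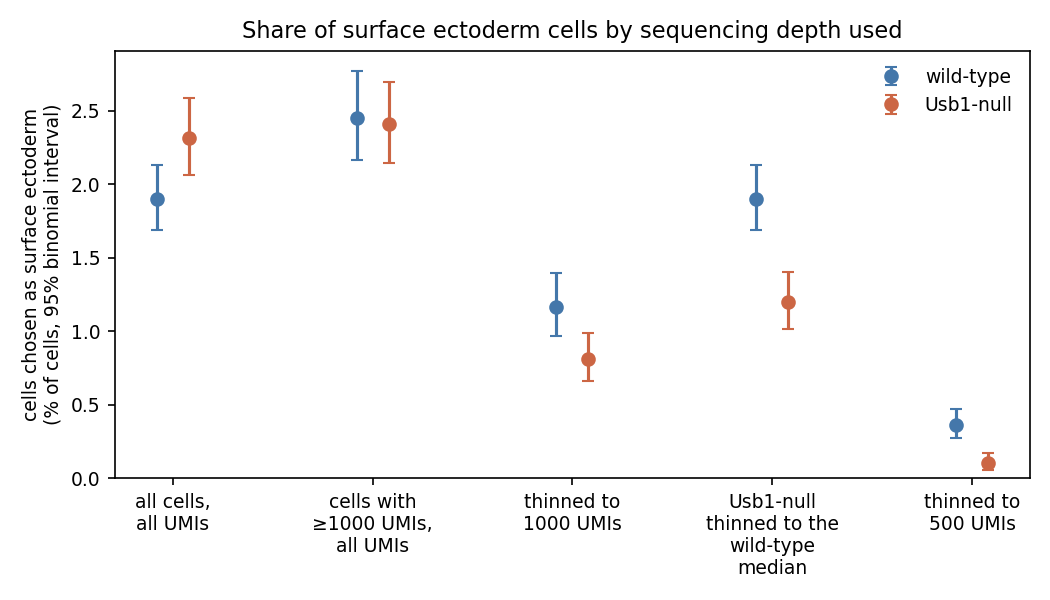
Percentage of cells chosen as surface ectoderm (vertical axis) in each library under 5 ways of treating sequencing depth, with exact 95% binomial intervals as bars. The Usb1-null point lies above the wild-type point with all UMIs (2.31% against 1.90%) and below it in each of the 3 thinned readings, such as 0.814% against 1.17% at 1000 UMIs.

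The background of the rule was read in cells that should lack p63. Among cells with at least 3 endothelial genes, 0.274% of wild-type cells (median 1512.5 UMIs) and 0.928% of Usb1-null cells (median 2640 UMIs) met the rule. Among cells with at least 4 mesenchyme genes, 0.773% and 1.05% met it, at median depths of 2045 and 3276.5 UMIs. Among wild-type cells with at least 3 erythroid genes, 1.37% met it at a median of 918 UMIs, and 2.86% of the 175 wild-type cells with at least 4 neural genes met it, which is 5 cells (interval 0.934 to 6.54%). In the Usb1-null library, 0.913% of the erythroid and 0.932% of the neural cells met it. After thinning to 1000 UMIs, at most 1 cell of any of these sets met the rule, but the sets were chosen again and were smaller. The neural sets held 37 wild-type and 16 Usb1-null cells, with intervals up to 9.49% and 20.6%. The Usb1-null mesenchyme set held 122 cells, with an interval up to 2.98%. A lower background at equal depth can therefore not be read from them. Apart from the wild-type neural cells, the shares read with all UMIs were below those of all cells in the same library.

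Trp63 was also read without choosing cells by it, as a description of the 2 libraries. Over all cells it gave 677 UMIs, or 31.2 CPM, in the wild-type and 661 UMIs, or 19.8 CPM, in the Usb1-null library, and their ratio was 0.636 (0.570 to 0.709). Of these UMIs, 73.9% and 82.8% lay in the surface ectoderm cells. In cells chosen by at least 3 of the other 9 markers and fewer than 2 gut endoderm genes, Trp63 stood at 270 CPM in 648 wild-type cells and 157 CPM in 907 Usb1-null cells, and their ratio was 0.581 (0.503 to 0.671). The median depth of these cells was 1594 and 2689 UMIs, and the part of the choice at unequal depth in this difference was not tested. These cells hold other epithelia too, in proportions that were not measured, so that fewer p63-positive cells and less Trp63 RNA per cell cannot be told apart. Thinned to 1000 UMIs, 26.8% of 269 wild-type and 15.97% of 263 Usb1-null cells of this kind carried a Trp63 UMI (intervals 21.6 to 32.5% and 11.8 to 20.97%). These cells were chosen by markers of the rule, so their values are no support for the reading over all cells. All the values describe 1 library each.

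Of the other 9 markers of the rule, read over all cells, 4 were lower in the Usb1-null library, 3 were higher, and 2 had intervals that cover 1. Wnt6, a ligand made by the surface ectoderm, was at 31.1 CPM in the wild-type and 19.7 CPM in the Usb1-null library, and their ratio was 0.634 (0.568 to 0.706), and Fermt1, an integrin activator of epithelia, had a ratio of 0.708 (0.615 to 0.814). Mir205hg had a ratio of 0.830 (0.710 to 0.971). The ratios of the remaining markers, all but Epcam near or above the wild-type level, were 1.04 for Grhl2 (0.959 to 1.14), 0.976 for Cldn6 (0.892 to 1.07), 1.14 for Cdh1 (1.03 to 1.26), 1.17 for Esrp1 (1.06 to 1.30), 1.25 for Galnt3 (1.08 to 1.45) and 0.878 for Epcam (0.818 to 0.943). A smaller share of the UMIs of these markers than of Trp63 lay in the chosen cells, from 10.3% for Galnt3 to 38.8% for Wnt6 in the Usb1-null library.

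The surface ectoderm expressed 201 genes at least 2-fold above the other cells in both libraries, 3.09% of the 6506 genes with at least 50 UMIs over its cells, of which 191 were outside the rule. All genes of cells chosen by some of their genes count as used by the choice, so that these values are a description. The 15 highest with at least 100 UMIs were Sostdc1, Pdgfa, Sema3d, Fmn1, Lypd6b, Tfap2c, Platr22, Tfap2a, Bcam, Cldn7, Frem2, Npnt, Sema3e, Pdlim1 and Rbm47. Some of them are secreted signals, a kind whose share over all genes was not counted. Sostdc1, a secreted antagonist of WNT and BMP signaling, was 19.3-fold above the other cells in the wild-type and 15.4-fold in the Usb1-null library. Pdgfa, the growth factor by which epithelia address PDGFRA-positive mesenchyme, was 10.3-fold and 9.80-fold above them. Sema3d and Sema3e, secreted guidance cues, were 9.10-fold and 6.66-fold above the other cells in the wild-type, and 8.13-fold and 5.38-fold in the Usb1-null library. Others among the 15 are basement membrane proteins. Frem2, a protein that joins the epidermis to the dermis, was 6.05-fold and 5.502-fold above the other cells, and the integrin ligand Npnt was 5.48-fold and 5.63-fold above them.

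Gut endoderm and neuroepithelium were set beside the surface ectoderm to show where it differs from other epithelia. Gut endoderm cells were taken as those with Epcam, no Trp63 and at least 1 of 7 endoderm genes, such as Foxa1, Foxa2, Sox17 and Shh (74 wild-type and 179 Usb1-null cells). Neuroepithelial cells were taken as those with Sox2 and at least 2 of 7 neural progenitor genes but neither Epcam nor Trp63 (282 and 399 cells). Requiring 2 endoderm genes left 11 wild-type and 56 Usb1-null cells, too few wild-type cells to compare. The gut endoderm set also carried genes of other types. Its 15 mesenchyme genes summed to 557 and 337 CPM, against 277 and 259 CPM in the surface ectoderm. Its 11 erythroid genes summed to 900 and 72.1 CPM. The levels below are those of this mixed set, and the part of doublets and free RNA in it was not tested. Some epithelial genes outside both rules were within 2-fold of each other in the surface ectoderm and the gut endoderm. Rbm47, an RNA-binding protein of epithelia, was at 64.1 and 74.4 CPM against 110 and 94.0 CPM, and Krt18 at 98.8 and 103 CPM against 155 and 111 CPM.

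Genes of ectodermal identity and signaling separated both epithelia. Tfap2a was at 12.95 and 26.8 CPM in the gut endoderm, Wnt7a at 6.48 and 5.03 CPM against 81.5 and 33.6 CPM in the surface ectoderm, and Kremen2, a co-receptor of the WNT inhibitor Dickkopf, was at 0 UMIs in the gut endoderm of both libraries against 41.6 and 15.3 CPM. Pdgfa was at 45.3 and 52.0 CPM in the gut endoderm against 350 and 270 CPM, and Sema3d at 58.3 and 50.3 CPM against 416 and 354 CPM. The serine protease Tmprss2 went the other way, with 104 and 87.2 CPM in the gut endoderm and 10.4 and 15.3 CPM in the surface ectoderm.

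**Figure D2:**
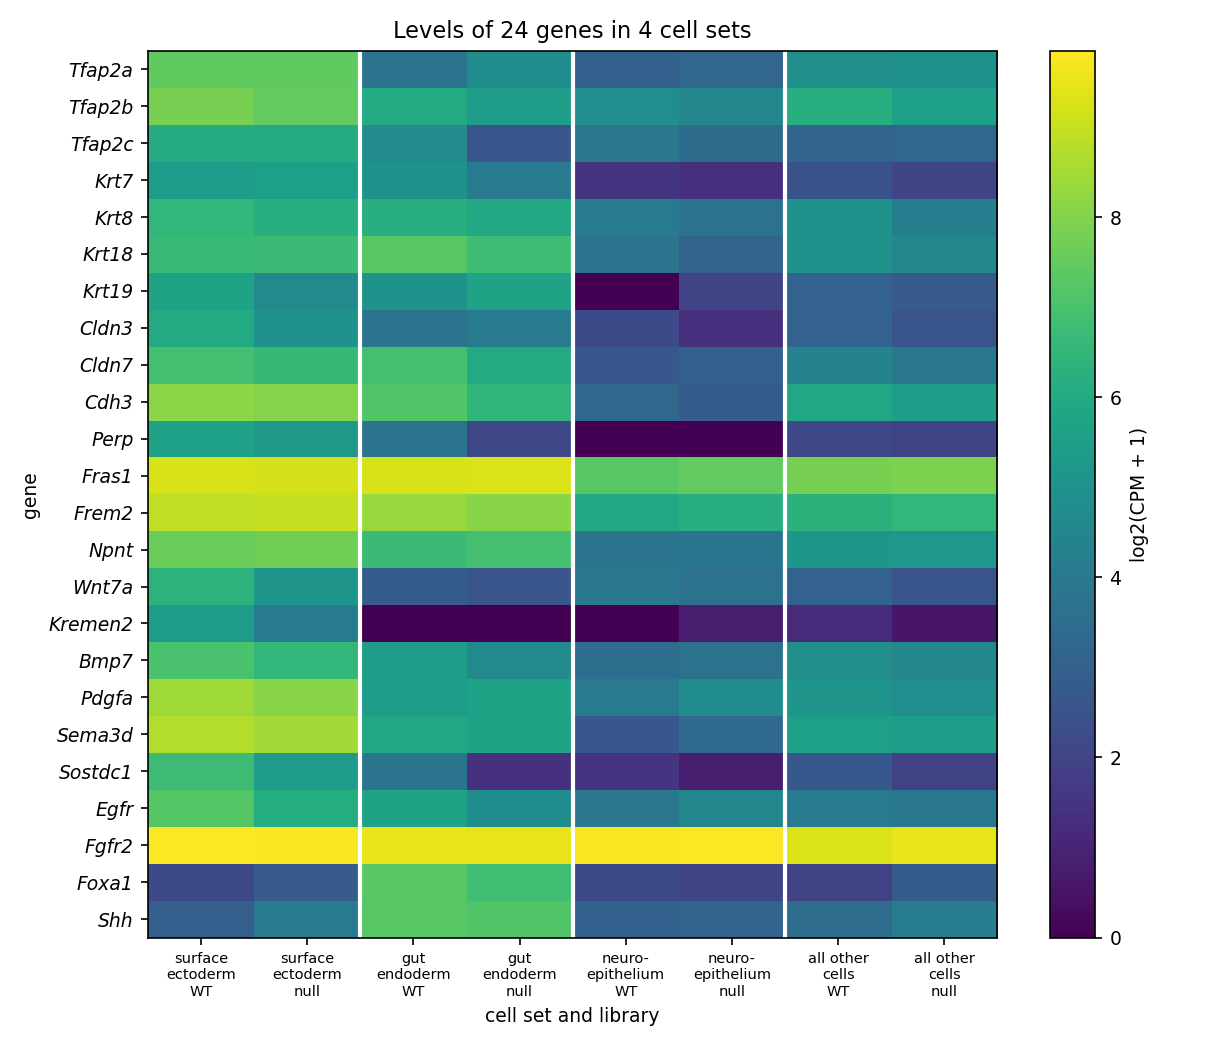
Levels of 24 genes (rows) as log2(CPM + 1), shown by color, in surface ectoderm, gut endoderm, neuroepithelium and all other cells of the wild-type (WT) and Usb1-null (null) libraries (columns). Tfap2a, Pdgfa, Sema3d, Wnt7a and Kremen2 are highest in the surface ectoderm, whereas the keratin Krt18 and Fras1 are at similar levels in the gut endoderm and Foxa1 and Shh, used to choose the gut endoderm, are highest there.

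The cytoskeleton was that of a simple epithelium. Krt8, which pairs with Krt18 in simple epithelia, was at 90.1 CPM in the wild-type and 72.4 CPM in the Usb1-null cells, and Krt18 was at 98.8 and 103 CPM. Krt7 was at 41.6 and 45.9 CPM, 9.17-fold and 14.4-fold above the other cells. Keratins of stratified epithelia were at or under the limit of 3 UMIs. Krt5 gave 0 and 2 UMIs and Krt14 gave 1 and 3 UMIs, and Krt4, Krt6a, Krt13 and Krt17 gave 0 UMIs in both libraries, as did the hemidesmosome collagen Col17a1 and the desmosomal cadherins Dsg3 and Dsc3. A count of 0 among the 576999 wild-type and 981168 Usb1-null UMIs of the surface ectoderm cells means that these genes were not detectable at this depth.

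Of the 4 keratins with at least 20 UMIs over both libraries, Krt19 had the lowest ratio. It gave 30 UMIs (52.0 CPM) in the wild-type and 25 UMIs (25.5 CPM) in the Usb1-null cells, and their ratio was 0.490 (0.276 to 0.862). In cells that met the rule at 1000 UMIs, its log2 ratio was -0.13 in place of -1.001. The summed keratins had a ratio of 0.880 (0.720 to 1.08) in the surface ectoderm and 0.659 in the other cells.

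The transcription factors of the surface ectoderm were at close levels in the 2 libraries. Summed over 21 genes, the wild-type level was 692 CPM (625 to 763) and the Usb1-null level 636 CPM (587 to 688), and their ratio was 0.920 (0.810 to 1.05). Of the 9 with at least 20 UMIs, 5 were higher and 4 lower in the Usb1-null cells, with a median log2 ratio of 0.02, against -0.03 over all 9816 genes with that many UMIs, of which 47.0% were higher. Tfap2a had a ratio of 1.01 (0.786 to 1.31) and Tfap2c a ratio of 0.990 (0.653 to 1.52). Tfap2b, at 229 and 176 CPM, had a ratio of 0.771 (0.611 to 0.974), and it was higher in the Usb1-null cells when at least 3 further markers were required (log2 ratio 0.10). Gata3, a zinc finger factor of the embryonic epidermis, gave 11 UMIs in 10 wild-type cells and 39 UMIs in 35 Usb1-null cells, and their ratio was 2.08 (1.05 to 4.51).

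Cell junctions and basement membrane were likewise close. The 34 junction genes summed to 3038 CPM in the wild-type and 3008 CPM in the Usb1-null cells, and their ratio was 0.990 (0.933 to 1.05), with 10 of 26 counted genes higher and 16 lower. Over all genes counted alike, 47.0% were higher. Cldn3, a tight junction claudin, was the only one of the 26 at least 2-fold lower, at 64.1 and 30.6 CPM, and their ratio was 0.477 (0.284 to 0.793). F11r, a junctional adhesion molecule, was higher in the Usb1-null cells, at 153 and 209 CPM (ratio 1.37, 1.06 to 1.78), and it was also higher in the other cells. The 24 basement membrane genes had a summed ratio of 1.02 (0.964 to 1.07). Fras1, which forms a complex with Frem2 under the epidermis, was at 612 and 595 CPM and Frem2 at 484 and 501 CPM. Col4a2, a collagen IV chain, was at 244 and 147 CPM (ratio 0.601, 0.473 to 0.763), while its partner Col4a1 was at 184 and 192 CPM (ratio 1.04, 0.818 to 1.34).

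The 13 genes of epithelial splicing, trafficking and proteases had a summed ratio of 0.969 (0.827 to 1.14), and 1.18 in the other cells. The 12 genes listed as p63 targets had a summed ratio of 1.01 (0.941 to 1.09). Of 6 counted genes 2 were higher and 4 lower, where 47.0% of all genes counted alike were higher. The sum of the 12 was carried by Fras1 and Fgfr2, the FGF receptor of epithelia (899 and 895 CPM), both of which were also expressed in the other cells. Perp was at 48.5 and 38.7 CPM (ratio 0.798, 0.477 to 1.35) and Jag2, a Notch ligand, at 55.5 and 54.0 CPM (ratio 0.974, 0.617 to 1.56).

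**Figure D3:**
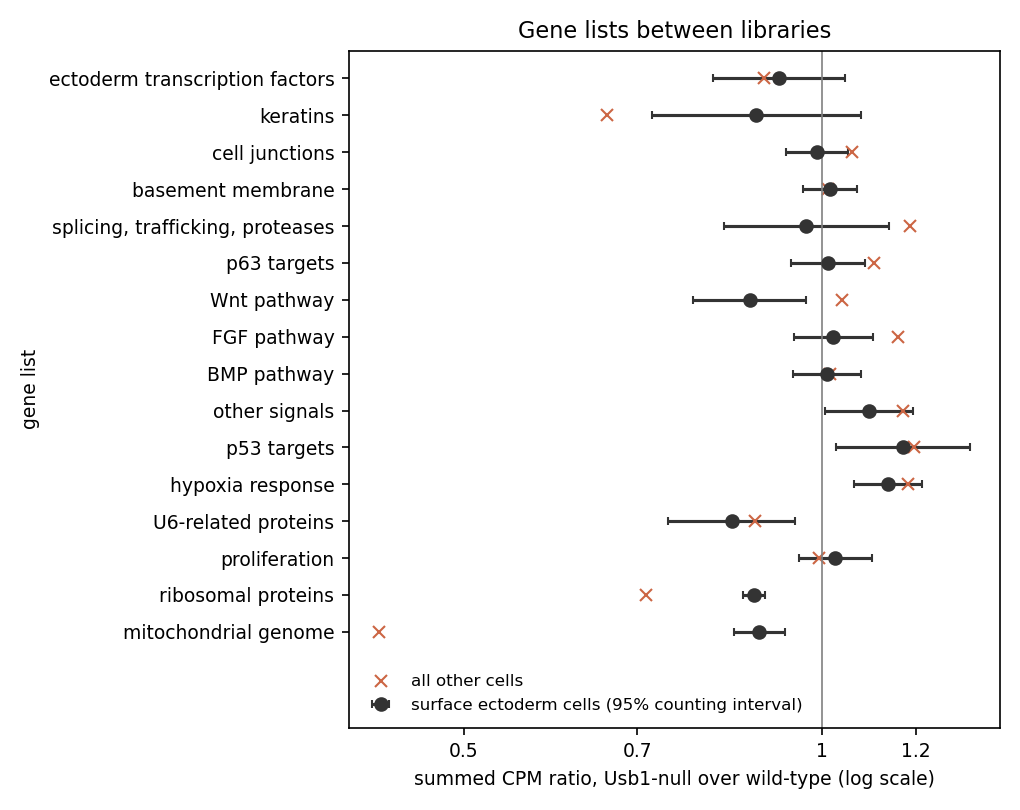
Ratio of the summed CPM of 16 gene lists between the Usb1-null and the wild-type library (horizontal axis, log scale) in surface ectoderm cells, with 95% counting intervals, and in all other cells (crosses). The Wnt list is the epithelial signaling list whose interval lies below 1 (0.780 to 0.970), with the other cells at 1.04.

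The intervals of the Wnt list and of the list of other signals left out 1. The 23 Wnt genes summed to 964 CPM in the wild-type and 838 CPM in the Usb1-null surface ectoderm, and their ratio was 0.869 (0.780 to 0.970), whereas the ratio in the other cells was 1.04. Of 13 counted genes, 9 were lower and 4 higher, with a median log2 ratio of -0.13, close to the -0.11 of the enriched genes outside the rule. Over all genes counted alike, 47.0% were higher. Wnt7a, which marks dorsal ectoderm of the limb, gave 47 UMIs in 37 wild-type cells and 33 UMIs in 25 Usb1-null cells, or 81.5 and 33.6 CPM, and their ratio was 0.413 (0.256 to 0.658). Kremen2 gave 24 UMIs in 22 cells and 15 UMIs in 14 cells, and their ratio was 0.368 (0.179 to 0.730). Both were low and also lower in the other cells of the Usb1-null library, Wnt7a at 7.61 and 5.09 CPM and Kremen2 at 1.23 and 0.525 CPM. Wnt4, at 67.6 and 43.8 CPM, had a ratio of 0.648 (0.410 to 1.03), and its log2 ratio was -1.92 in place of -0.61 in cells that met the rule at 1000 UMIs. The WNT target Axin2 and the nuclear effector Lef1 had intervals that cover 1, with Axin2 at 55.5 and 67.3 CPM (ratio 1.21, 0.784 to 1.91) and Lef1 at 307 and 262 CPM (ratio 0.854, 0.702 to 1.04).

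The BMP list had a ratio of 1.01 (0.946 to 1.08), with ligands on both sides. Bmp4 was at 71.1 and 33.6 CPM (ratio 0.473, 0.290 to 0.767) and Bmp7 at 130 and 89.7 CPM (ratio 0.690, 0.501 to 0.952). In contrast, Bmp5 was at 78.0 and 140 CPM, and their ratio was 1.79 (1.27 to 2.57), with its UMIs spread over 37 wild-type and 85 Usb1-null cells. This direction turned (log2 ratio -0.65) in the few cells that met the rule at 500 UMIs, 55 wild-type and 13 Usb1-null, on 6 and 2 UMIs. The BMP response genes Id1, Id2 and Id3 had ratios of 0.975, 0.784 and 0.858, each with an interval that covers 1. The FGF list had a ratio of 1.02 (0.948 to 1.10). Its ligand Fgf8, which marks the limb ridge and the pharyngeal ectoderm, was at 67.6 and 57.1 CPM (ratio 0.844, 0.551 to 1.31). Etv4, a target of FGF signaling, was at 39.9 and 19.4 CPM (ratio 0.486, 0.2502 to 0.933), while the ligand Fgf9 went the other way with 7 and 29 UMIs, at 12.1 and 29.6 CPM (ratio 2.44, 1.04 to 6.59). The relative of Etv4, Etv5, was at 53.7 and 76.4 CPM (ratio 1.42, 0.925 to 2.24).

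The 16 genes of other signals, such as Notch, ephrin and PDGF, had a summed ratio of 1.10 (1.01 to 1.19) and 1.17 in the other cells, with 9 of 13 counted genes higher. Over all genes counted alike, 47.0% were higher. Egfr, the EGF receptor, gave 87 UMIs in 59 wild-type cells and 67 UMIs in 45 Usb1-null cells, or 151 and 68.3 CPM, and their ratio was 0.453 (0.324 to 0.630). In the other cells it was at 15.7 and 14.4 CPM. Edn1, the pharyngeal ectoderm signal that patterns the lower jaw, gave 4 UMIs in 4 wild-type cells and 27 UMIs in 23 Usb1-null cells, and their ratio was 3.97 (1.38 to 15.6), whereas it was at 9.17 and 6.42 CPM in the other cells. In cells that met the rule at 1000 UMIs, Edn1 gave 1 and 2 UMIs, and its log2 ratio was 0.60 in place of 1.85. Pdgfa, at 350 and 270 CPM, had a ratio of 0.771 (0.640 to 0.931).

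**Figure D4:**
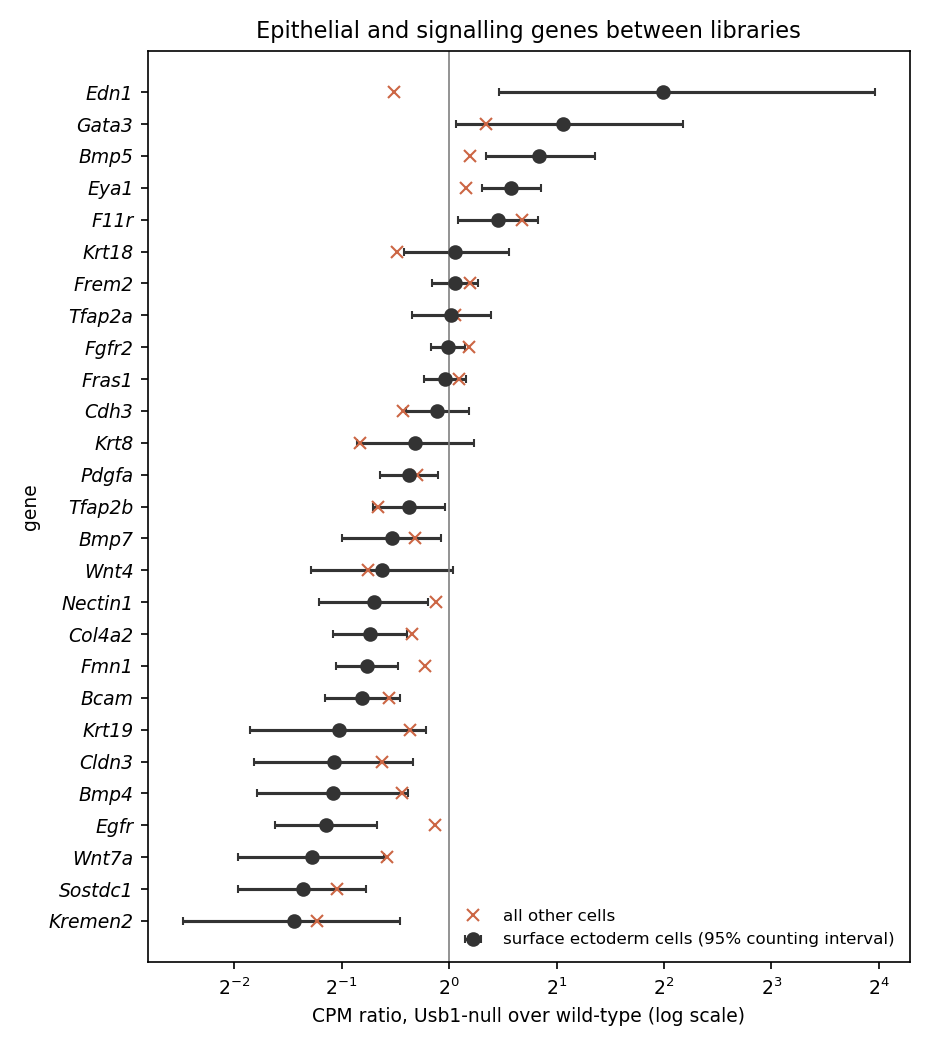
Ratio of CPM between the Usb1-null and the wild-type library (horizontal axis, log scale) for 27 epithelial and signaling genes in surface ectoderm cells, with 95% counting intervals as bars, and in all other cells (crosses). Egfr (0.453) and Wnt7a (0.413) lie below 1 with the crosses closer to 1, Tfap2a (1.01) and Frem2 (1.04) lie near 1, and Bmp5 (1.79) and Edn1 (3.97) lie above it.

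Across all genes, 65 of 6506 (0.999%) were higher by 2-fold or more in the surface ectoderm of the Usb1-null library and 57 (0.876%) lower by as much, on the log2(CPM + 1) scale, and 47.8% were higher by any amount. The Usb1-null cells were also chosen on UMIs thinned to the wild-type median depth, which left 156 cells, read with all their UMIs. The counts were then 34 higher and 70 lower, of which 24 and 30 were among the 65 and the 57. Of the 65, 4 were Y-linked and 59 were also higher in the other cells, 24 of them at least 2-fold. Of the 57, 3 were Xist, Tsix and Gm47283, a gene model on chromosome Y that both libraries expressed, and 51 were also lower in the other cells, 12 of them at least 2-fold. The 10 highest with at least 100 UMIs were Lars2, Gm42418, AY036118, Cmss1, Snrpf, B230312C02Rik, Ppat, Camk1d, Dctd and Atxn2l. Gm42418 (chromosome 17, 39846958 to 39848788) and AY036118 (chromosome 17, 39847113 to 39848035), which overlap each other at a locus with ribosomal RNA sequence, had ratios of 5.23 and 4.97, and log2 ratios of 2.22 and 2.36 in the other cells. Lars2, the mitochondrial leucyl-tRNA synthetase, had a ratio of 5.54 (4.28 to 7.29), with a log2 ratio of 2.04 in the other cells. In contrast, Ppat, an enzyme of purine synthesis, had log2 ratios of 1.23 in the surface ectoderm and 0.19 in the other cells, and the deaminase Dctd 1.10 and 0.01. In cells that met the rule at 1000 UMIs, Dctd was at 2.03.

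The 10 lowest were Hbb-y, Gm16000, Slc25a21, Sostdc1, Cdh13, Gm10076, Mecr, Clstn2, Egfr and Dmd. Hbb-y, an embryonic globin, was at 175 and 27.5 CPM and differed as much in the other cells, at 457 and 77.3 CPM. Sostdc1 was at 107 and 41.8 CPM (ratio 0.389, 0.256 to 0.586), with its 62 and 41 UMIs in 49 and 35 cells, and its log2 ratio was -0.82 in the other cells. Cdh13, an atypical cadherin, had log2 ratios of -1.33 in the surface ectoderm and -0.23 in the other cells. Clstn2 and Dmd, the dystrophin gene, had log2 ratios of -1.13 and -1.10 in the surface ectoderm, against -0.19 and -0.05 in the other cells. These differences depended on which cells were counted. With doublets left out, Slc25a21 had a log2 ratio of -0.33 in place of -1.41 and Clstn2 one of -0.32. Without cells carrying genes of other types, Clstn2 was at -0.29 and Slc25a21 at -0.76, while Dmd was lower still at -1.89. In cells that met the rule at 1000 UMIs, Clstn2 was at -0.39, Dmd at -0.23 and Cdh13 at -0.0411. Slc25a21, Mecr and Clstn2 were higher in the Usb1-null library in the cells that met the rule at 500 UMIs, on 0 and 1, 8 and 5, and 6 and 4 UMIs.

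Of the 191 enriched genes outside the rule, 122 were lower and 69 (36.1%) higher in the Usb1-null cells, against 47.8% higher over all 6506 genes. Their median log2 ratio was -0.11, against -0.02 over all genes. Both the enrichment and the rule use the same UMIs, so this is a description. Among the 15 most enriched genes, Bcam, a laminin receptor, was at 243 and 139 CPM (ratio 0.571, 0.448 to 0.729) and Fmn1, an actin-nucleating formin, at 355 and 209 CPM (ratio 0.588, 0.482 to 0.717). Platr22, a noncoding RNA, was higher, with 26 and 75 UMIs (ratio 1.70, 1.07 to 2.76), but at a log2 ratio of 0.057 in place of 0.75 in cells that met the rule at 1000 UMIs. The log2 ratio of Rbm47 turned from 0.21 to -0.55 in that reading.

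Stress and growth lists were read beside the other cells, with no test of the difference. Over all 9816 genes with at least 20 UMIs, 47.0% were higher in the Usb1-null cells. The 23 p53 targets, which follow the activity of the tumor suppressor p53, had a summed ratio of 1.17 (1.03 to 1.33) in the surface ectoderm and 1.196 in the other cells, with 12 of 14 counted genes higher. Psrc1 was the one with the largest difference among those with at least 50 UMIs, at 22.5 and 52.998 CPM (ratio 2.35, 1.26 to 4.71), and Mdm2, the main feedback target, was at 113 and 126 CPM (ratio 1.12, 0.824 to 1.54). The hypoxia list had a summed ratio of 1.14 (1.06 to 1.21) and 1.18 in the other cells, with 14 of 20 counted genes higher. Bnip3, a mitophagy receptor induced by low oxygen, gave 6 UMIs in 5 wild-type cells and 58 UMIs in 48 Usb1-null cells, and their ratio was 5.68 (2.46 to 16.1). Its log2 ratio was 2.40 in the surface ectoderm and 1.27 in the other cells. In cells that met the rule at 1000 UMIs, Bnip3 gave 0 wild-type and 17 Usb1-null UMIs and Psrc1 gave 2 and 20, too few for a ratio.

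The 16 proteins that bind or process U6 snRNA had a summed ratio of 0.840 (0.743 to 0.9501), and 0.878 in the other cells, with 11 of 15 counted genes lower. Over all genes counted alike, 47.0% were higher. Lsm7, a subunit of the ring that binds the U6 3′ end, was at 69.3 and 34.7 CPM (ratio 0.4999, 0.307 to 0.810), and Lsm2 at 64.1 and 37.7 CPM (ratio 0.588, 0.363 to 0.954). The proliferation list had a ratio of 1.03 (0.956 to 1.10), with Mki67 at 281 and 435 CPM (ratio 1.55, 1.29 to 1.87) and Ccnb2 at 65.9 and 23.4 CPM (ratio 0.356, 0.202 to 0.613). The immediate early genes, which respond to cell dissociation, had a ratio of 1.13 (0.901 to 1.43). Transcripts of the mitochondrial genome had a ratio of 0.886 (0.843 to 0.931) in the surface ectoderm and 0.424 in the other cells, and ribosomal protein genes 0.877 (0.858 to 0.897) and 0.712. Summed cardiac genes had a ratio of 0.526 (0.427 to 0.647), and 0.561 in the other cells. The white blood cell list gave 2 and 8 UMIs and the trophoblast list 0 and 5 UMIs.

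Hox genes, the homeobox genes that mark position along the trunk, were read in the surface ectoderm cells. After thinning to 1000 UMIs, 27.2% of 250 wild-type cells and 25.8% of 299 Usb1-null cells had a UMI of any Hox gene. Hox groups 1 to 4 were found in 18.4% (13.8 to 23.8) and 19.4% (15.1 to 24.3), groups 5 to 8 in 11.2% and 9.03%, and groups 9 to 13 in 10 wild-type cells and in 2.34% of Usb1-null cells. All these intervals overlap between the libraries. In the other cells, thinned likewise, 36.0% and 38.2% had a Hox UMI, more than in the surface ectoderm, and the part of free RNA and doublets in these UMIs was not tested.

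Regional gene lists marked few cells at this depth. At least 2 of 11 anterior placode genes, such as Eya1 and Otx2, were found in 13.2% of the wild-type surface ectoderm cells (9.26 to 18.0) and 11.7% of the Usb1-null ones (8.29 to 15.9), against 9.08% and 7.83% of the other cells, where several of these genes serve the brain and mesoderm. Eya1, a phosphatase that also acts as a transcriptional cofactor, was at 265 and 395 CPM (ratio 1.49, 1.23 to 1.81). The 10 limb ridge genes, Wnt7a among them, had a summed ratio of 0.703 (0.560 to 0.884) and 0.975 in the other cells, and the 11 anterior placode genes one of 1.203 (1.06 to 1.37) and 0.933. Eya1 alone gave 153 of the 350 wild-type and 388 of the 716 Usb1-null UMIs of the anterior placode list. At least 2 limb ridge genes were found in 5 wild-type cells and 1 Usb1-null cell, and at least 2 oral or pharyngeal genes in 4 cells and 1 cell. No cell had 2 genes of the tail or the neurogenic placode lists, and 0 and 1 cells had 2 otic genes. These are shares of cells in which UMIs were found, not of cells of a region. Most were higher with all UMIs, such as 1.99% of Usb1-null cells with 2 otic genes. The tail list and, in Usb1-null cells, the neurogenic placode list stayed at 0.

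Surface ectoderm cells with and without a Hox UMI were compared within each library. Read with all UMIs, 106 wild-type and 134 Usb1-null cells had a Hox UMI, and 182 and 167 had none. The cells with a Hox UMI were also deeper, with medians of 1964.5 and 3001.5 UMIs against 1567 and 2534. Of 6502 genes, 31 were at least 2-fold higher and 19 at least 2-fold lower in cells with a Hox UMI in both libraries, a comparison added after the data were seen, in which both libraries had to agree for a gene to be counted. Some genes of other lists went opposite ways, such as Wnt7a (ratio of cells with over cells without a Hox UMI 0.977 in the wild-type and 5.72 in the Usb1-null library) and Krt19 (0.555 and 2.63). The wild-type intervals of both cover 1 (0.525 to 1.81 and 0.232 to 1.24). Others went the same way in both libraries, such as Tbx3 (1.85 and 1.70) and Fgf8 (0.493 and 0.279). The rule genes other than Mir205hg were lower in cells with a Hox UMI in both libraries, such as Epcam (0.581 and 0.658). These genes chose the cells, and the part of depth in this difference was not tested, so nothing is read from it. Among cells without one, Pitx1, a homeobox gene of the oral ectoderm, was higher. Pitx1 gave 1 UMI in wild-type cells with a Hox UMI and 20 in those without, and 4 and 25 UMIs in the Usb1-null library. Has2, the hyaluronan synthase, had log2 ratios of -1.83 and -1.40 between cells with and without a Hox UMI. Cells with a Hox UMI were higher in the zinc finger genes Tshz2 (log2 ratios 1.58 and 1.98), Tshz3 (1.56 and 1.39) and Zeb2 (1.79 and 1.70). The comparison was not repeated without doublets, and the part of doublets and free RNA in these UMIs was not tested. Cubn, at the top of this comparison in the Usb1-null library, had 54 of its UMIs in 1 cell.

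**Figure D5:**
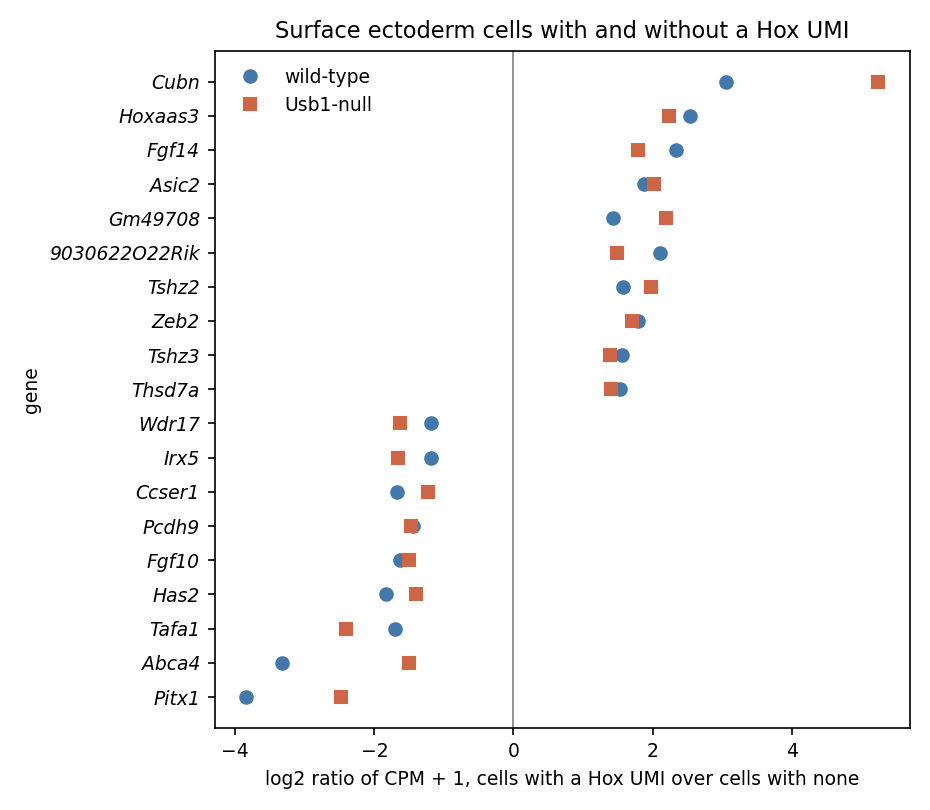
Difference in log2(CPM + 1) between surface ectoderm cells with a Hox UMI and those with none (horizontal axis) for genes among the 10 highest and the 10 lowest in both libraries, with wild-type as circles and Usb1-null as squares. Pitx1 and Has2 lie left of 0 and Tshz2, Tshz3 and Zeb2 right of 0 in both libraries.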

How the data were processed

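Whole E9.5 embryos were dissociated and profiled with 10x Chromium 3′ v3.1 chemistry, with 1 wild-type and 1 Usb1-null library. The authors deposited gene by cell UMI counts made with Cell Ranger (6.1.2 in the file headers, 2.1.1 in the submitters' processing notes) on mm10; the counts are raw and not normalized. The wild-type file holds 15162 barcodes, more than the cells given in the study's methods, and the Usb1-null file 13034, of which 15161 and 13018 had 200 to 6000 detected genes. Each barcode had at least 500 UMIs. The libraries shared 61 barcodes. All 32285 genes were used. Of their identifiers, 32235 were in GENCODE M21.

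UMIs were summed over the chosen cells of each library and given as CPM, with exact Poisson, Clopper-Pearson or conditional binomial 95% intervals for levels, shares and ratios. The intervals cover counting error only. A fold change on the log2 scale used 1 CPM added to each level. Genes needed 50 UMIs over both libraries to be counted, 20 within a list, and 100 to be named among the 10 highest, the 10 lowest or the 15 most enriched. The named genes were these, the genes of the rule, up to 4 members of each list by the largest difference or highest level, and the sex-linked genes and Usb1 as checks. Perp, Jag2, Tmprss2, Col4a1, Id1 to Id3, Axin2, Fgf8, the undetected keratins and the genes of the Hox comparison were chosen after their values were seen. The floor was 3 UMIs per library. Cells were thinned to 1000 UMIs, or 500, without replacement, to choose them or to count cells with a UMI, and gene levels always used all UMIs of the chosen cells. Doublets were called with Scrublet in Scanpy 1.11.5 (expected rate 10%) and kept. TMM factors came from edgeR 4.0.16, with no edgeR test. The gut endoderm rule was relaxed from 2 genes to 1 after the data were seen. The sums were tested on simulated data. The members and lists were chosen with earlier results of these data known. Values of some listed genes are not reported here.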

Additional observations from a re-analysis of the deposited data

How the results depend on the processing

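No paired analysis was possible because each group is 1 library and no test between groups was run. The difference in its share, Usb1-null minus wild-type, was 0.413 percentage points and reversed to -0.354 at 1000 UMIs (-0.518 and -0.393 with 2 other random draws, added after the data were seen), -0.263 at 500 UMIs, -0.259 with at least 1000 detected genes, and, in readings added after the data were seen, -0.701 with the Usb1-null library thinned to the wild-type median and -0.0437 in cells with at least 1000 UMIs. It kept its sign with doublets left out, with 1 or 3 further markers and with the mitochondrial limit, under which no surface ectoderm cell was lost.

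The counts of genes at least 2-fold higher and lower (65 and 57) became 28 and 28 for cells chosen at 1000 UMIs (7 and 5 of them shared), 9 and 8 at 500 UMIs, where few genes had enough UMIs, 253 and 230 with 20 UMIs per gene and 3330 and 1932 with 1 UMI per gene. With Usb1-null cells chosen on thinned UMIs but read with all UMIs, 34 genes were higher and 70 lower. With doublets left out the counts were 68 and 51, but 32 of the 65 and 24 of the 57 genes remained, and without cells carrying genes of other types they were 48 and 61, with 21 and 22 remaining. At 4-fold, 69 genes in place of 201 were above the other cells.

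Summed log2 ratios of lists moved beyond their counting interval in 17 of 203 readings. For cells chosen at 1000 UMIs they were -0.31 for ectoderm transcription factors, -0.0864 for basement membrane, -0.42 for splicing, trafficking and proteases, -0.10 for p63 targets and 0.34 for proliferation. At 500 UMIs they were -0.0602 for basement membrane, -0.72 for splicing, trafficking and proteases, 0.13 for p63 targets, -0.18 for BMP, 0.57 for other signals and 0.54 for proliferation. With doublets left out they were -0.14 for cell junctions and -0.0764 for basement membrane. The cause was not tested.

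Among named genes 687 of 756 readings stayed within the counting interval, 63 moved and 6 reversed. The sign differed in 50 of the 756, 15 of them at 500 UMIs, and those counted as reversed had a counting interval that left out 1 to begin with, namely Tfap2b with 3 further markers (0.10) and, at 500 UMIs, Slc25a21 (4.86, from 0 and 1 UMIs, so that its size is set by the 1 CPM added), Mecr (0.24), Clstn2 (0.34), Platr22 (-0.0738) and Bmp5 (-0.65).

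Regional shares moved with depth by construction. Unthinned, wild-type and Usb1-null cells with 2 limb ridge genes were 5.21% and 5.98%, with 2 anterior placode genes 23.3% and 39.2%, with any Hox UMI 36.8% and 44.5%, and with Hox 1 to 4 29.9% and 38.5%. In Usb1-null cells 1.99% had 2 otic genes, 4.32% 2 oral or pharyngeal genes, 17.3% Hox 5 to 8 and 7.64% Hox 9 to 13. With 3 genes required, the anterior placode shares were 0.800% and 2.34%, and those of the limb ridge, oral or pharyngeal and, in Usb1-null cells, otic lists were 0%.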
